A study of Mus musculus with 39 samples.

Results

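Monocyte receptors and lysozymes, 6 of the 22180 genes measured, were followed through a mouse model of leukaemia with the AML1-ETO fusion: the chemokine receptors Ccr2 and Cx3cr1, the growth factor receptor Csf1r, the lysozymes Lyz1 and Lyz2, and Ly6c1. They were chosen by name, as probe sets annotated to that single symbol, and each of the 6 had 1 such probe set. Levels are given as the deposited log2 values, so a difference of 1 unit means a doubling.

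The mice were bone marrow transplant recipients, and RNA came from donor cells sorted by CD45.1 from their whole marrow at the end stage of disease. Donor cells carried AE9a, the shorter spliced product of that fusion gene, either alone ("AE9a"), with miR-126 ("added miR-126", labelled AE9a+miR-126), or on a miR-126 knockout background ("knockout", labelled miR-126KO+AE9a). Each arm was followed over 4 serial passages with 3 mice at each (12 mice an arm), and 3 normal controls came from the first passage, which gives 13 groups and 39 arrays. All groups share the transplant setting. The labels used here do not give strain, age, vectors, the control's construct or the donor behind each recipient. The p-values therefore reflect the spread among these recipients alone. The study asked what gain and loss of miR-126 do in this leukaemia.

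Monocytes leave the marrow as classical, Ly6C-high cells that depend on CCR2, the receptor of the chemokine CCL2, and can turn into non-classical patrolling cells that carry much CX3CR1, the receptor of fractalkine. CSF1R, the receptor of CSF1 and IL-34, sustains the lineage. Lysozyme cuts bacterial cell walls; mice have a gene used widely by myeloid cells (Lyz2) and a neighbouring copy best known from Paneth cells of the gut (Lyz1). Ly6c1 and Ly6c2 encode near-identical surface proteins, and antibodies to Ly6C read both.

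The arrays differed in spread. The SD over all probe sets ran from 1.43 to 2.03 with added miR-126, from 1.78 to 2.04 in the knockout, from 1.86 to 2.06 for AE9a and from 1.87 to 2.08 for normal marrow. Below 1.8 lay 8 arrays: replicates 1 and 2 of passage 2, all 3 of passage 3 and replicates 1 and 2 of passage 4 with added miR-126, and replicate 3 of the knockout at passage 2. Results with added miR-126 after passage 1 rest largely on these arrays. For this arm, counts of members called are given with and without them, except at passage 3, where all 3 are among them. Counts or values of gene lists are given with and without them against AE9a only. Without them 1 array of the arm is left at passages 2 and 4, which is assumed to vary like the other groups, so values with that array alone have no replicate check. The leukocyte gene Ptprc, which encodes CD45, read 9.31 to 11.68 on all arrays, and 8 endothelial and stromal markers had mean levels of 5.34 to 6.09 per array, where the median of all values was 5.52. The probe set shared by Mir126a and its host gene read 5.90 to 11.56 with added miR-126, against 2.76 to 3.04 in AE9a and 2.77 to 3.15 in the knockout, so it shows the gain, and since it is as low in AE9a as in the knockout it cannot check the loss.

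The agent and the stretches before the start of some members are shown here from RefSeq tables on GRCm38.p6. The part of these stretches in the results was not tested. The mature strand of miR-126 (chr2:26591402-26591423, plus strand) is given 5′ to 3′ with its seed, bases 2 to 8, in capitals. The 250 bases before the transcription start are shown for Cx3cr1 (chr9:120068297-120068546), Lyz1 (chr10:117292869-117293118) and Lyz2 (chr10:117282273-117282522), all on the minus strand, because Cx3cr1 had the lowest adjusted p of the members in the knockout and because the lysozyme copies, which sit next to each other with no annotated gene between them, both fell with added miR-126. Capitals mark 7-letter matches to AGGAAGT, a core of PU.1 and other ETS factors, and 6-letter matches to TGTGGT, a core of runt factors, the family that binds DNA in the fusion, on either strand.
mmu-miR-126a-3p: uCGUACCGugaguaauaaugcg
Cx3cr1: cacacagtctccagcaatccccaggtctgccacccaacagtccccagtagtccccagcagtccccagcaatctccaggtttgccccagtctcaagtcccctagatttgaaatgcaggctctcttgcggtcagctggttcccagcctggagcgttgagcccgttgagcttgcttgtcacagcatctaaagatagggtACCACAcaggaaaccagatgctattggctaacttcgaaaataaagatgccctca
Lyz1: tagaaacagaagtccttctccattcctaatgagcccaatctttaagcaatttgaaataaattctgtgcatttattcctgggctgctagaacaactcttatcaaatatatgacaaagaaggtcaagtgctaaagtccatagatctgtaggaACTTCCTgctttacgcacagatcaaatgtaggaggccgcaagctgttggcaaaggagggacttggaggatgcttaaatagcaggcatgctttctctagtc
Lyz2: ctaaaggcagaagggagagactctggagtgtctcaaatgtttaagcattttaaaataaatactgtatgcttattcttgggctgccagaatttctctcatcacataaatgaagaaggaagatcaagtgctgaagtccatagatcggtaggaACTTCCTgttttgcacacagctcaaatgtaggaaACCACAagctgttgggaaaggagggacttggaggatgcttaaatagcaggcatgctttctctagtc

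The Lyz1 and Lyz2 stretches were identical at 200 of 252 aligned columns (79.4%), and at 92 of the 100 bases nearest the start. Both hold AGGAAGT on the opposite strand, beginning 100 bases before the start, while TGTGGT lies in the Lyz2 stretch and not in that of Lyz1. Of the 5 members with a stretch available, 3 (Lyz1, Lyz2 and a second start of Ly6c1) hold AGGAAGT and 2 (Cx3cr1 and Lyz2) hold TGTGGT. Among 32851 single stretches of this length the shares are 7.69% and 14%. A member was counted if any of its starts matched, and the lysozyme stretches are near copies. The member counts and these shares are therefore not a like comparison. A match is a description of letters and shows no binding.

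**Figure D1:**
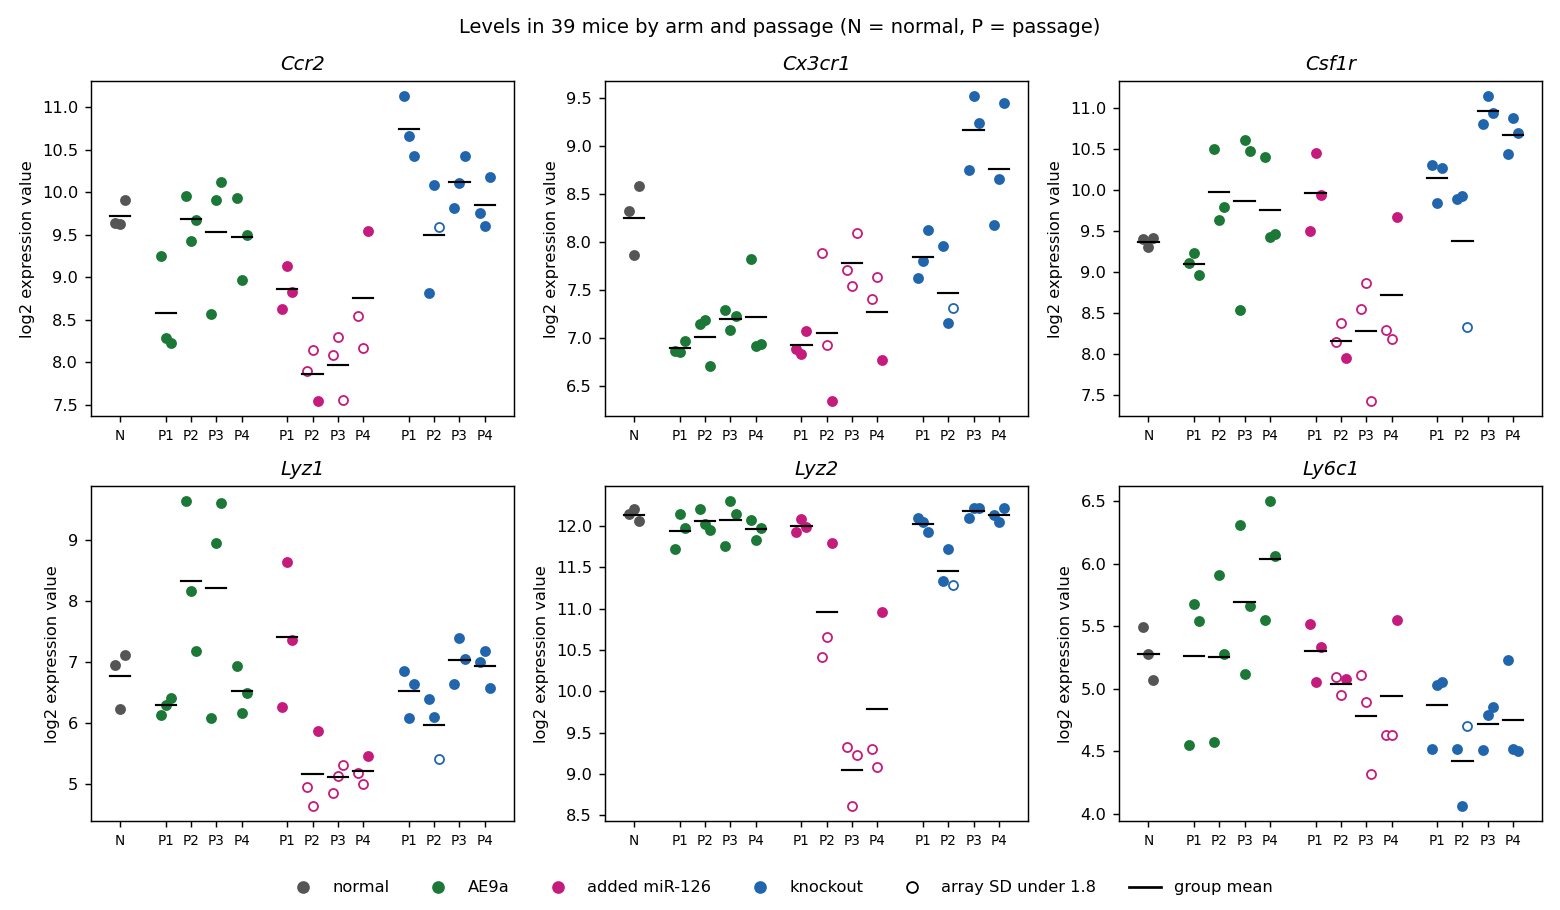
Log2 expression value of each of 39 mice (points) for the 6 genes, by arm and passage, with group means as bars; open points are the 8 arrays with an SD under 1.8. Lyz2 lies between 11.28 and 12.30 in every mouse outside the added miR-126 arm and reaches 8.61 within it, and Cx3cr1 is highest in the knockout at passages 3 and 4.

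Cx3cr1, the fractalkine receptor, was higher in knockout than in AE9a mice at most passages. The normal controls read 8.32, 7.86 and 8.58. AE9a read 6.86, 6.85 and 6.97 at passage 1, 7.14, 7.19 and 6.71 at passage 2, 7.29, 7.08 and 7.23 at passage 3, and 7.82, 6.91 and 6.94 at passage 4. Every AE9a mouse thus lay below every normal mouse. The knockout read 7.62, 7.80 and 8.12 at passage 1, 7.96, 7.16 and 7.31 at passage 2, 8.75, 9.52 and 9.24 at passage 3, and 8.18, 8.66 and 9.45 at passage 4. All knockout mice lay above the AE9a mice of their passage at passages 1, 3 and 4, with overlap at passage 2. With added miR-126 it read 6.88, 6.83 and 7.07 at passage 1, 7.88, 6.93 and 6.34 at passage 2, 7.71, 7.54 and 8.09 at passage 3, and 7.41, 7.63 and 6.77 at passage 4. Of these 12 mice, the 5 on arrays of ordinary spread read 6.34 to 7.07, within or below the AE9a range. The order of group means ran from the knockout at passage 3 (9.17) through the knockout at passage 4 and the normal controls (8.25) to AE9a at passage 1 (6.89), and no neighbours in it lay apart without overlap.

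Ccr2, which lets classical monocytes leave the marrow, read 9.64, 9.62 and 9.91 in the normal controls. AE9a read 9.25, 8.28 and 8.23 at passage 1, 9.96, 9.42 and 9.67 at passage 2, 8.57, 9.91 and 10.12 at passage 3, and 9.93, 8.97 and 9.50 at passage 4. AE9a was therefore low at passage 1 and spread around the normal level later. The knockout was highest at passage 1, with 11.13, 10.66 and 10.43, against 8.81, 10.09 and 9.59 at passage 2, 9.81, 10.11 and 10.43 at passage 3, and 9.76, 9.60 and 10.18 at passage 4. Added miR-126 read 8.63, 9.13 and 8.83 at passage 1, 7.89, 8.14 and 7.54 at passage 2, 8.08, 8.30 and 7.55 at passage 3, and 8.54, 8.16 and 9.54 at passage 4. At passage 2 the array of ordinary spread was the lowest of the 3 (7.54), and at passage 4 it was the highest (9.54). Group means ran from 10.74 in the knockout at passage 1 to 7.86 with added miR-126 at passage 2, with overlap between all neighbours.

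Csf1r, the receptor on which the lineage depends, varied little among normal controls (9.40, 9.31 and 9.41). AE9a read 9.11, 9.23 and 8.96 at passage 1, and ranged from 8.54 to 10.61 over the passages. The knockout read 10.80, 11.14 and 10.94 at passage 3 and 10.44, 10.88 and 10.69 at passage 4, while at passage 2 it held both 9.93 and 8.33, the latter on its array of low spread. With added miR-126 it read 9.50, 10.45 and 9.94 at passage 1, 8.15, 8.38 and 7.95 at passage 2, 8.55, 8.87 and 7.43 at passage 3, and 8.29, 8.18 and 9.67 at passage 4. The arm was above AE9a in all mice at passage 1 and below it in all mice at passage 2. Csf1r had 2 of 12 neighbouring groups apart in the order of means: the knockout at passage 4 above the knockout at passage 1, and the normal controls above AE9a at passage 1.

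Lyz2, the myeloid lysozyme, was low in the added miR-126 arm after passage 1. It read 12.14, 12.20 and 12.06 in the normal controls, from 11.72 to 12.30 (median 12) in 12 AE9a mice and from 11.28 to 12.22 (median 12.08) in 12 knockout mice. With added miR-126 it read 11.93, 12.08 and 11.99 at passage 1, 10.42, 10.66 and 11.80 at passage 2, 9.32, 8.61 and 9.23 at passage 3, and 9.30, 9.08 and 10.96 at passage 4. The passage 1 values lay within the AE9a range, and 8 of the 9 later values lay below every mouse of the other arms, including the 10.96 of an array with ordinary spread. Only AE9a at passage 1 and the knockout at passage 2 were neighbouring groups that lay apart.

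Lyz1, the neighbouring copy, varied widely between mice of a group. The normal controls read 6.94, 6.23 and 7.11, and AE9a read 6.13, 6.29 and 6.41 at passage 1, 9.63, 8.16 and 7.17 at passage 2, 6.07, 8.95 and 9.60 at passage 3, and 6.92, 6.15 and 6.49 at passage 4. Single AE9a mice of passages 2 and 3 thus lay far apart within a group, and the spread of Lyz1 within groups (residual SD 0.79) exceeded that of 99.0% of genes. With added miR-126 it read 6.25, 8.63 and 7.35 at passage 1, 4.95, 4.63 and 5.86 at passage 2, 4.85, 5.13 and 5.30 at passage 3, and 5.18, 5.0 and 5.45 at passage 4. All 9 mice after passage 1 lay below all AE9a mice. The knockout read 5.41 to 7.38 (median 6.64), around the normal level. Whether the probes of one lysozyme also read the other was not tested.

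Ly6c1 ranged from 4.06 to 6.50, on either side of the median of all values. It read 5.49, 5.28 and 5.07 in the normal controls. AE9a read 4.55, 5.68 and 5.54 at passage 1, 4.57, 5.91 and 5.28 at passage 2, 6.31, 5.12 and 5.66 at passage 3, and 5.55, 6.50 and 6.06 at passage 4. The knockout read 4.52, 5.03 and 5.05 at passage 1, 4.52, 4.06 and 4.70 at passage 2, 4.51, 4.79 and 4.85 at passage 3, and 5.23, 4.52 and 4.50 at passage 4, so all its mice of passages 3 and 4 lay below the AE9a mice of the same passage. Added miR-126 read 4.32 to 5.55 (median 5.07). Ly6c2, its near-identical partner on the same chromosome and the copy typical of monocytes, read 10.91 to 12.37 in all mice.

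Against normal marrow at passage 1, both chemokine receptors were low in AE9a and the other members did not pass the test. In AE9a 2 of 6 members fell, Cx3cr1 at -1.36 ± 0.32 on the log2 scale (standard error, n = 3 and 3, 2.57-fold, limma adjusted p = 0.00635) and Ccr2 at -1.14 ± 0.37 (adjusted p = 0.0469); 8.87% of all genes were called in this comparison. The Ccr2 call was lost in 5 of 6 fits without 1 mouse (adjusted p 0.0834 to 0.176, all but the one without AE9a replicate 1). The sorted cells are a mixture, and fewer cells of a type cannot be told apart from less RNA per cell. With added miR-126 1 of 6 fell, Cx3cr1 at -1.33 ± 0.32 (adjusted p = 0.00632, background 9.73%). In the knockout 0 of 6 passed in limma, with 1 at an unadjusted p under 0.05 and a background of 10.8%: Cx3cr1 was -0.41 ± 0.32 apart (adjusted p = 0.503, 95% interval -1.06 to 0.24) and Ccr2 1.02 ± 0.37 (adjusted p = 0.0724; 0.0472 when the arrays of low spread are left out of the fit). All 3 comparisons share the same normal controls.

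At passage 4 the arms stood differently to the same controls. In AE9a 0 of 6 members passed in limma (2 at an unadjusted p under 0.05, background 4.4%), Cx3cr1 among them at -1.03 ± 0.32 (adjusted p = 0.0601). That gene passed without AE9a replicate 1 (-1.33, adjusted p = 0.0200) or normal replicate 2 (-1.23, adjusted p = 0.0489), and when the arrays of low spread are left out of the fit (adjusted p = 0.0192). In the knockout 0 of 6 passed in limma (1 at an unadjusted p under 0.05, background 5.68%), with Csf1r at 1.30 ± 0.44 (adjusted p = 0.0856; 0.0200 without the arrays of low spread) and Cx3cr1 at 0.51 ± 0.32. With added miR-126 4 of 6 fell, on a background of 31.5%: Lyz2 at -2.36 ± 0.31 (5.12-fold, adjusted p = 1.74e-06), Lyz1 at -1.55 ± 0.60 (adjusted p = 0.0477), Cx3cr1 at -0.98 ± 0.32 (adjusted p = 0.0203) and Ccr2 at -0.97 ± 0.37 (adjusted p = 0.0417). With the array of ordinary spread alone, which is assumed to vary like the other groups, Ccr2 was -0.18 apart (adjusted p = 0.915) and Lyz1 -1.31 (adjusted p = 0.484). Single mice also decided 3 of these calls: Ccr2 was lost in 5 of 6 fits without 1 mouse (adjusted p 0.0708 to 0.25, all but added miR-126 replicate 3), Lyz1 in 4 (0.113 to 0.153, added miR-126 replicates 1 and 2 and normal replicates 1 and 3) and Cx3cr1 in 3 (0.0627 to 0.0773, added miR-126 replicate 3 and normal replicates 1 and 3); Csf1r (-0.66 ± 0.44) passed without added miR-126 replicate 3 (-1.14, adjusted p = 0.0428).

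Loss of miR-126 was set against AE9a over the 4 passages, with 12 mice an arm. Of 6 members 2 rose and 1 fell, where 8.17% of all genes were called: Cx3cr1 rose by 1.23 ± 0.16 (2.35-fold, limma adjusted p = 4.45e-06), Ccr2 rose by 0.73 ± 0.18 (adjusted p = 0.008) and Ly6c1 fell by 0.87 ± 0.17 (adjusted p = 0.000575). Csf1r was 0.61 ± 0.22 higher (adjusted p = 0.0956) and passed without replicate 3 of the knockout at passage 2 (0.74, adjusted p = 0.0253), without AE9a replicate 2 of passage 3 (0.70, adjusted p = 0.0481) and without all arrays of low spread (0.74, adjusted p = 0.00914). Lyz2 differed by -0.06 ± 0.15 (95% interval -0.37 to 0.25) and Lyz1 by -0.73 ± 0.30 (adjusted p = 0.159; -0.99 and 0.00705 without AE9a replicate 1 of passage 3). When the 3 mice of a group were averaged and passages served as the replicates, 0 of 6 passed in limma (Cx3cr1 adjusted p = 0.0885), and 0.117% of all genes did.

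Single passages gave different members. At passage 1, 1 of 6 members was called (background 2.09%): Ccr2 rose by 2.16 ± 0.37 (4.45-fold, adjusted p = 0.000859), with Cx3cr1 at 0.95 ± 0.32 (adjusted p = 0.129; 0.0447 when the arrays of low spread are left out of the fit). At passage 2, 1 of 6 was called (background 3.99%): Lyz1 fell by 2.36 ± 0.60 (adjusted p = 0.0207), a call lost without AE9a replicate 1 or 2 or knockout replicate 3, the array of low spread (adjusted p 0.0585 to 0.195). At passage 3, 1 of 6 was called (background 1.05%): Cx3cr1 rose by 1.97 ± 0.32 (3.92-fold, adjusted p = 0.00091), while Lyz1 (-1.19 ± 0.60, adjusted p = 0.622) passed only without AE9a replicate 1 (-2.26, adjusted p = 0.0447). At passage 4, 2 of 6 were called (background 1.33%): Cx3cr1 rose by 1.54 ± 0.32 (2.91-fold, adjusted p = 0.00682) and Ly6c1 fell by 1.29 ± 0.33 (adjusted p = 0.043). There Cx3cr1 lost the call without AE9a replicate 2, AE9a replicate 3 or knockout replicate 3 (0.076 to 0.123), and Ly6c1 without any of these or knockout replicate 2 (0.188 to 0.387). Leaving out passage 1 took the mean of Ccr2 to 0.26 ± 0.21 (adjusted p = 0.573), while that of Cx3cr1 ran from 0.99 to 1.49 without any 1 passage and passed each time.

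**Figure D2:**
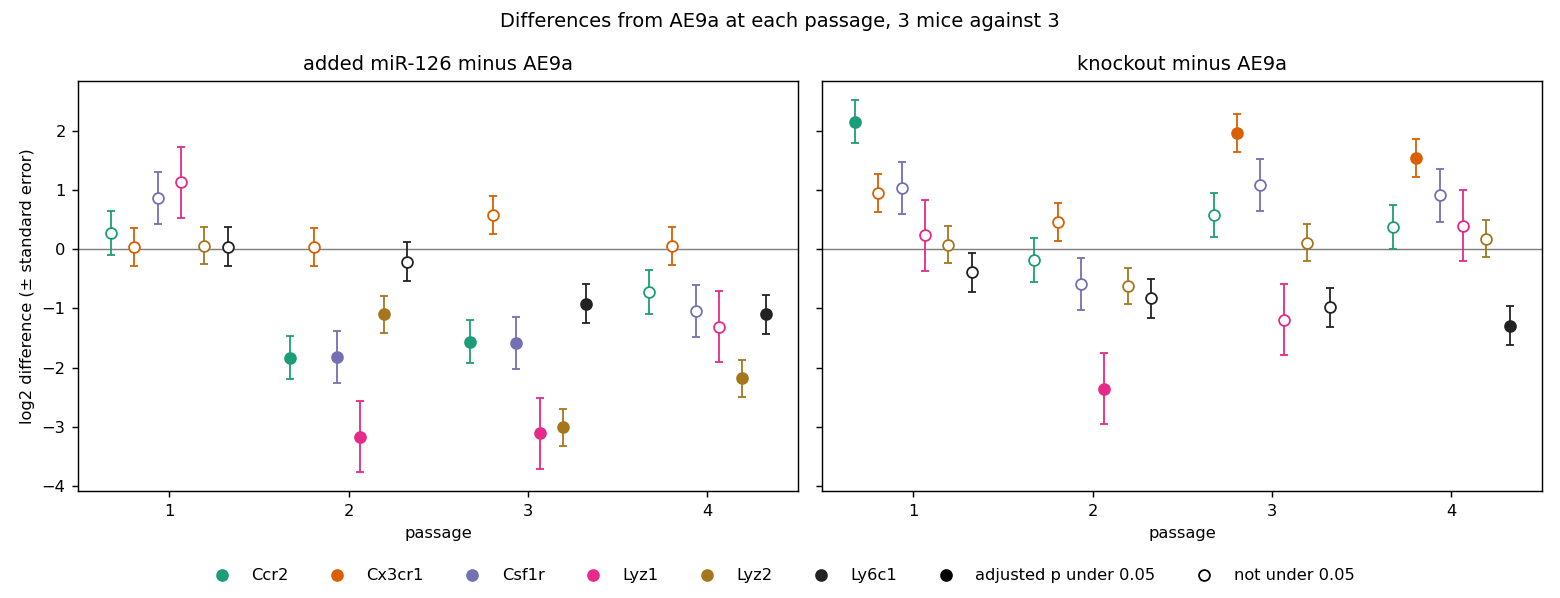
Log2 difference from AE9a (± standard error) at each passage for the 6 genes, for added miR-126 (left) and the knockout (right), 3 mice against 3; filled points passed at an adjusted p under 0.05. In the knockout Ccr2 stands highest at passage 1 (2.16) and Cx3cr1 at passage 3 (1.97). With added miR-126 both lysozymes lie below -1 from passage 2 on, but Lyz1 did not pass at passage 4 (-1.31, limma adjusted p = 0.1).

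Averaged over the 4 passages, genes of the non-classical, patrolling monocyte rose in the knockout, as Cx3cr1 did. The list does not hold Cx3cr1 itself. Its mean level was 7.54 in the knockout against 7.17 in AE9a at passage 1, and 7.89 against 7.93 at passage 2. At passage 3 it was 9.85 against 8.09, and at passage 4 it was 9.62 against 8.34. Of 14 measured genes on that list 8 rose and 0 fell against AE9a over the 4 passages, where 2.88% of all genes rose and 5.29% fell. The median of the list was 0.77 and that of all genes 0.01. Among them were Ace, the angiotensin-converting enzyme (2.03 ± 0.25, adjusted p = 2.2e-06), the scavenger receptor Cd36 (1.64 ± 0.33), the fatty acid binding protein Fabp4 (2.09 ± 0.43) and the apolipoprotein Apoc2 (0.78 ± 0.17). Without the arrays of low spread 9 rose and with the spread as a covariate 10 did, where 12.1% and 13.3% of all genes were called in either direction. Against normal marrow 4 of 14 were lower at passage 1 (median -0.72), where 5.91% of all genes were lower, and 6 of 14 were higher at passage 4, where 2.04% of all genes were higher, with Cd36 at 3.66, Ace at 2.48 and a median of 1.60.

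The classical monocyte list split in the knockout. Of 14 measured genes 3 rose and 3 fell, with a median of 0.02, where 2.88% of all genes rose and 5.29% fell. The Fc receptor Fcgr1 (0.82 ± 0.22) rose, as did Ms4a4c (0.79) and Ms4a6c (0.73), which are named here after their values were seen, while the chemokine receptor Ccr1 (-1.10 ± 0.22), the endotoxin co-receptor Cd14 (-1.03 ± 0.27) and Mgst1 (-0.64 ± 0.18) fell. Ly6c2 was -0.20 ± 0.10 apart (adjusted p = 0.267), so the Ly6C pair did not share the call of Ly6c1; at passage 2 it fell by 0.68 ± 0.19 (adjusted p = 0.0373), with 1 low-spread array in the group.

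**Figure D3:**
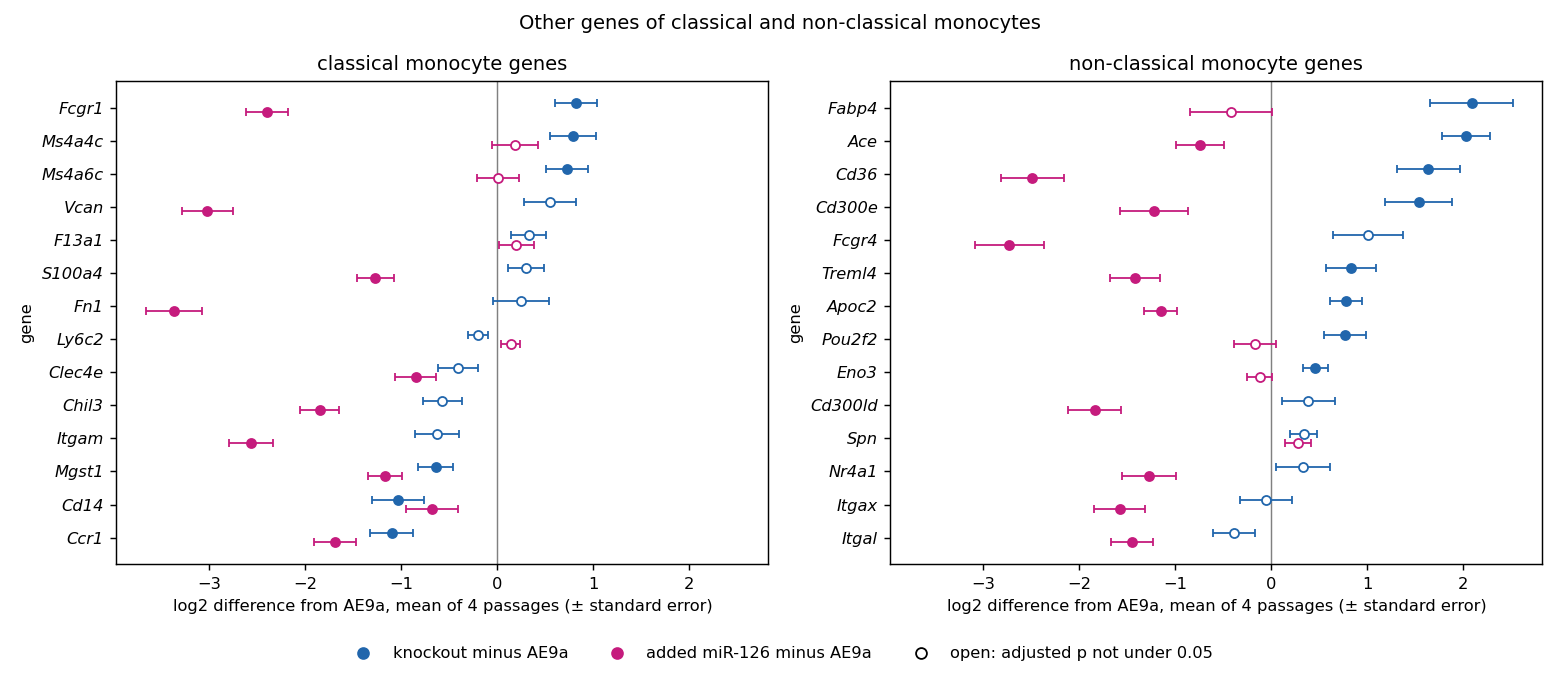
Log2 difference from AE9a, mean of 4 passages (± standard error), for the measured genes of the classical (left) and non-classical (right) monocyte lists, in the knockout (blue) and with added miR-126 (pink); filled points passed. In the knockout the non-classical list has 8 genes that rose and 0 that fell, the classical list 3 and 3.

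Other cell markers moved in the same knockout mice, where 2.88% of all genes rose and 5.29% fell against AE9a. All 12 neutrophil markers fell (median -1.60, Cxcr2 at -2.36, Mmp9 at -2.34), and their mean level per mouse ran from 7.74 to 11.07 against 10.11 to 11.61 in AE9a. Of 5 erythroid markers 3 rose (Car1 at 3.16), with mean levels of 6.23 to 8.14 against 4.89 to 8.08. Of 10 markers of NK and T cells, some of which carry Cx3cr1 as well, 6 fell (Nkg7 at -1.37), with mean levels of 4.84 to 5.60 against 5.10 to 7.13. Of 10 macrophage markers 0 passed in limma (6.67 to 8.25 against 6.38 to 8.09), and of 9 dendritic cell markers 1 rose (Bst2, 0.50) and 1 fell (Ccr7, -0.84). The part of these cells in the members' values was not tested.

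Ligands and regulators of the receptors gave few calls in the knockout, where 2.88% of all genes rose and 5.29% fell against AE9a. Of 5 ligands of CCR2 and CX3CR1, 1 fell, fractalkine itself (Cx3cl1, -0.32 ± 0.09, adjusted p = 0.0232), and Ccl2 was 0.47 ± 0.35 apart (adjusted p = 0.562). Of 13 genes of the CSF1R pathway and of monocyte regulation, the ligand Csf1 fell (-1.17 ± 0.28, adjusted p = 0.00588) and the transcription factor Klf4, which non-classical monocytes need, rose (0.98 ± 0.27, adjusted p = 0.0173). Of 10 other chemokine receptors 4 fell (Cxcr2, Ccr1, Ccr7 at -0.84 and Cxcr5 at -0.54), and of 13 lysosome genes 1 fell (Ctsd, -0.62 ± 0.13).

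Added miR-126 was set against AE9a over the same passages. Of 6 members 5 fell, where 55.1% of all genes were called: Lyz1 at -1.61 ± 0.30 (limma adjusted p = 8.44e-05), Lyz2 at -1.56 ± 0.15 (2.95-fold, adjusted p = 5.39e-09), Ccr2 at -0.96 ± 0.18 (adjusted p = 0.000118), Csf1r at -0.90 ± 0.22 (adjusted p = 0.00154) and Ly6c1 at -0.55 ± 0.17 (adjusted p = 0.00712). Cx3cr1 was 0.18 ± 0.16 apart (adjusted p = 0.35). With so many genes passing, this share is no result about the members, and their median of -0.93 stood beside a median of 0.08 over all genes. With passages as the replicates these 5 calls were lost (limma adjusted p 0.107 to 0.168), and 0.00451% of all genes passed. Without the arrays of low spread, and so over passages 1, 2 and 4 with 1 array of the arm at each of passages 2 and 4, 1 of 6 fell on a background of 4.43%: Lyz2 at -0.40 ± 0.10 (adjusted p = 0.0199, the spread of the lone arrays being taken from the other groups). Lyz1 then read -0.80 ± 0.48 (adjusted p = 0.49), Ccr2 -0.60 (0.264), Csf1r -0.42 (0.539), Ly6c1 -0.21 (0.819) and Cx3cr1 -0.36, which had turned sign. With the spread as a covariate Lyz2 (-1.05, adjusted p = 4.28e-05) and Lyz1 (-1.32, adjusted p = 0.0301) passed on a background of 12.7%. After cyclic loess Cx3cr1 passed upwards (0.56, adjusted p = 0.0313) and Csf1r was lost (-0.41, adjusted p = 0.0748).

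Single passages showed where these differences lay. At passage 1, with every array above an SD of 1.8, 0 of 6 members passed in limma and 0 at an unadjusted p under 0.05 (background 0.0316%); Lyz2 was 0.06 ± 0.31 apart and Csf1r 0.86 ± 0.44, both towards higher levels. At passage 2, 4 of 6 fell (background 8.85%): Lyz1 at -3.17 ± 0.60 (adjusted p = 0.00153), Ccr2 at -1.83 ± 0.37 (adjusted p = 0.00255), Csf1r at -1.82 ± 0.44 (adjusted p = 0.0125) and Lyz2 at -1.10 ± 0.31 (adjusted p = 0.026). The files give no detection call, so no fold is stated for Lyz1 at these levels. With the 1 array of ordinary spread alone, assumed to vary like the other groups, Lyz2 was -0.26 and Lyz1 -2.46 apart. Both lost their call, and Ccr2 and Csf1r did not, but a single array has no replicate check. Lyz2 was lost in 5 of 6 fits without 1 mouse (0.0536 to 0.221, all but added miR-126 replicate 3), and Csf1r without AE9a replicate 1 or added miR-126 replicate 1 (0.0596 and 0.0908).

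At passage 3, where all 3 arrays of the arm had a low spread, 5 of 6 fell on a background of 52.2%, with Lyz1 at -3.11 ± 0.60 and Lyz2 at -3.01 ± 0.31 (8.08-fold, adjusted p = 3.27e-08). Ccr2 fell by 1.56 ± 0.37, with Csf1r at -1.59 ± 0.44 and Ly6c1 at -0.92 ± 0.33. With the spread as a covariate 1 of these 5, Lyz2, passed, on a background of 7.86%. After cyclic loess Ccr2 (-0.46, adjusted p = 0.324) and Csf1r (-0.48, adjusted p = 0.325) did not pass and Cx3cr1 was higher (1.39, adjusted p = 0.00934), as after quantile normalization (Ccr2 -0.71, 0.116; Csf1r -0.78, 0.115; Cx3cr1 1.37, 0.00665). Csf1r was lost without added miR-126 replicate 3 (-1.17, adjusted p = 0.0572), and Ly6c1 without that mouse or AE9a replicate 1 (0.14 and 0.148). At passage 4, 2 of 6 fell (background 24.7%), Lyz2 at -2.18 ± 0.31 (4.53-fold, adjusted p = 6.66e-06) and Ly6c1 at -1.10 ± 0.33 (adjusted p = 0.0176). With the array of ordinary spread alone Lyz2 was -1.0 and Ly6c1 -0.48 apart (adjusted p = 0.000988 and 0.696); this single array is assumed to vary like the other groups, so neither p bears on whether the calls are stable. Ly6c1 was also lost without AE9a replicate 2 or added miR-126 replicate 1 or 2 (0.0923 to 0.105), and without added miR-126 replicate 3 Ccr2 (-1.12, adjusted p = 0.0173) and Csf1r (-1.52, adjusted p = 0.00884) passed.

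**Figure D4:**
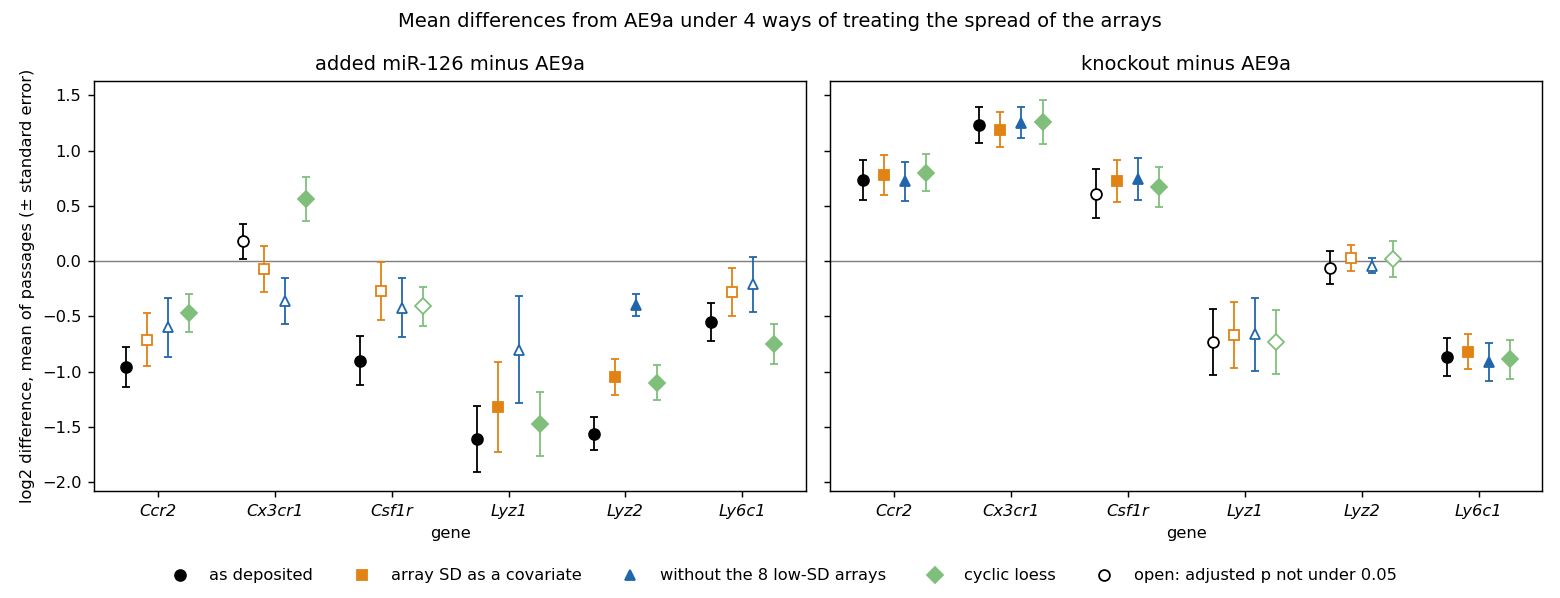
Log2 difference from AE9a averaged over passages (± standard error) for the 6 genes, with added miR-126 (left) and in the knockout (right), under 4 treatments of the arrays' spread; open points did not pass. With added miR-126, Lyz2 ranges from -1.56 to -0.40 and passes under all 4, and in the knockout Cx3cr1 stays between 1.19 and 1.26.

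**Figure D5:**
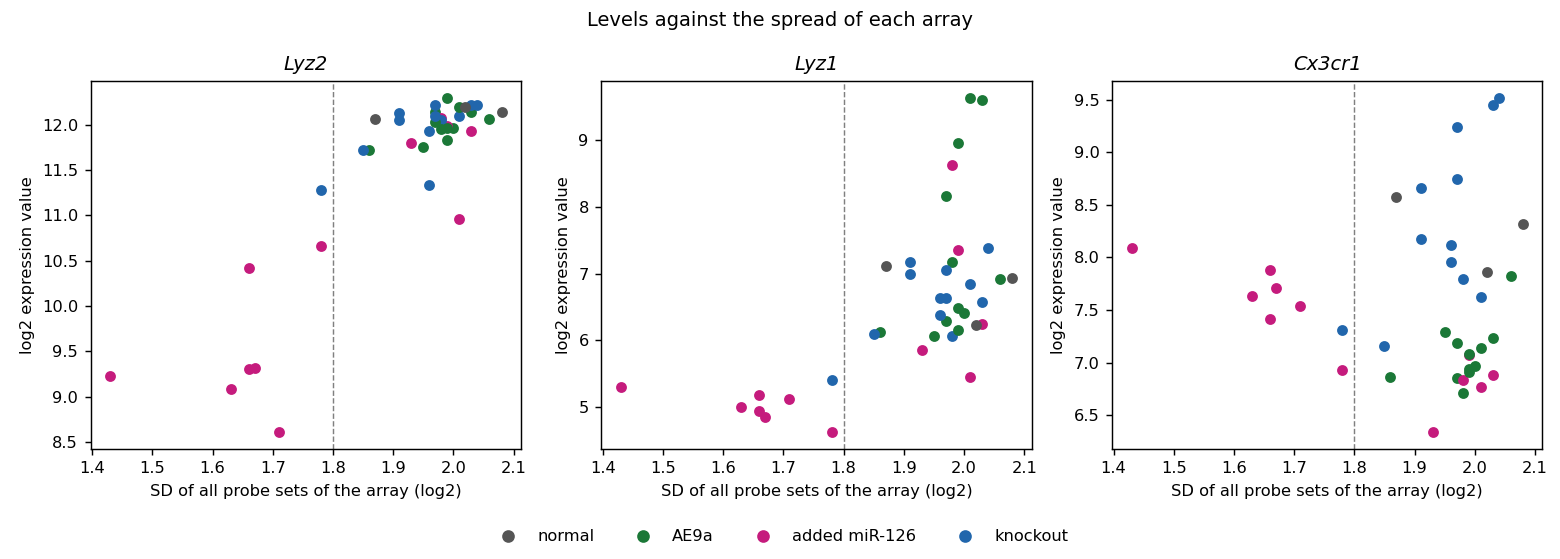
Log2 expression value of Lyz2, Lyz1 and Cx3cr1 in each of 39 mice against the SD of all probe sets on that mouse's array, by arm; the dashed line marks 1.8. The lowest Lyz2 values (8.61 to 9.32) all lie left of the line, on arrays with added miR-126.

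Lists of monocyte genes were also counted in the added miR-126 arm, where 24.3% of all genes fell and 30.7% rose (median of all genes 0.08). These shares are from the fit with all arrays. Counts without the arrays of low spread come from a fit that called a much smaller share of all genes, given above. Of 14 classical monocyte genes 10 fell (median -1.22), Fn1 at -3.37, Vcan at -3.02, Itgam at -2.57 and Fcgr1 at -2.40; without the arrays of low spread 7 fell (median -0.78). Of 14 non-classical genes 10 fell (median -1.24), Fcgr4 at -2.73 and Cd36 at -2.49; without those arrays 4 fell (median -0.90). Of 13 lysosome genes 11 fell, the cathepsins Ctsc at -1.87 and Ctsd at -1.09 among them, and 3 did without those arrays. Of 13 genes of the CSF1R pathway and of monocyte regulation 1 rose and 8 fell, including Spi1, which encodes PU.1, at -0.81 ± 0.13 and the GM-CSF receptor chains Csf2ra (-0.90) and Csf2rb (-0.76); without those arrays 0 rose and 2 fell. Cyclic loess left 35.5% of all genes called in either direction. After it 4 classical genes rose and 8 fell (median -0.83), and 1 non-classical gene rose and 9 fell (median -0.84). Of the lysosome genes 5 fell (median -0.02), and of the CSF1R pathway 3 rose and 5 fell (median -0.07).

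The other lists gave these counts in the same arm. Counts without the arrays of low spread again come from a fit that called a much smaller share of all genes. Of 5 ligands 1 fell (Ccl7, at -1.78 ± 0.33), and of 10 other chemokine receptors 7 fell (Cmklr1 at -1.90, Ccr1 at -1.69), or 3 without the arrays of low spread. Of 12 neutrophil markers 11 fell (median -2.01, Csf3r at -1.92), or 8 without those arrays, with mean levels per mouse of 6.75 to 11.53. Of 10 macrophage markers 8 fell (Adgre1 at -2.19) and 1 rose, Cd163 at 3.02, or 2 and 1 without those arrays. Ptprc fell by 0.47 ± 0.14 (adjusted p = 0.0069), and was -0.16 apart without them. The part of the cell mixture in the members' values was not tested.

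Gain and loss were compared directly over the 4 passages. Added miR-126 was below the knockout in 5 of 6 members, where 49.7% of genes were called: Ccr2 at -1.69 ± 0.18 (3.23-fold, limma adjusted p = 2.85e-08), Csf1r at -1.51 ± 0.22, Lyz2 at -1.5 ± 0.15, Cx3cr1 at -1.06 ± 0.16 and Lyz1 at -0.89 ± 0.30. Ly6c1 was 0.32 ± 0.17 apart (adjusted p = 0.102) and Ly6c2 was higher by 0.34 ± 0.10 (adjusted p = 0.00519). Leaving out the arrays of low spread removes passage 3 and leaves 1 array of the added miR-126 arm at each of passages 2 and 4. Lyz2 was then -0.31 and Lyz1 -0.32 apart, and both lost their call. Ccr2, Csf1r and Cx3cr1 did not, with the spread of the lone arrays taken from the other groups. With passages as the replicates 0 of 6 passed, and these 5 calls were lost (limma adjusted p 0.0616 to 0.339), where 1.2% of all genes passed.

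Serial transplantation was followed within each arm. From passage 1 to passage 4, 0 of 6 passed in AE9a (2 at an unadjusted p under 0.05, background 2.94%) and 0 of 6 in the knockout (2 at an unadjusted p under 0.05, background 4.04%), by limma. In the knockout Cx3cr1 was 0.92 ± 0.32 higher (adjusted p = 0.117; 0.0402 without the arrays of low spread) and Ccr2 -0.89 ± 0.37 apart. With added miR-126 3 of 6 fell (background 24.3%), Lyz2 at -2.22 ± 0.31 (4.67-fold, adjusted p = 3.73e-06), Lyz1 at -2.20 ± 0.60 (adjusted p = 0.00853) and Csf1r at -1.25 ± 0.44 (adjusted p = 0.04). Without the arrays of low spread, with 1 array left at passage 4 and its spread taken from the other groups, Lyz2 alone was called. Lyz1 was lost without added miR-126 replicate 2 of passage 1 (-1.59, adjusted p = 0.0709), and Csf1r in 4 of 6 fits without 1 mouse (0.0867 to 0.204: added miR-126 replicates 2 and 3 of passage 1 and replicates 1 and 2 of passage 4).

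The change of each effect between passages 1 and 4 was tested as such. For added miR-126 2 of 6 members passed (background 10.5%): the effect on Lyz2 went from 0.06 to -2.18, a change of -2.24 ± 0.43 (adjusted p = 0.00151), and that on Csf1r from 0.86 to -1.05, a change of -1.91 ± 0.63 (adjusted p = 0.0482). Without the arrays of low spread, with the same lone array, the Lyz2 change was -1.06 (adjusted p = 0.00725) and that of Csf1r -0.96 (adjusted p = 0.553); Csf1r also missed the threshold after cyclic loess (-1.29, adjusted p = 0.126) and quantile normalization (-1.35, adjusted p = 0.139). The Csf1r change was lost in 11 of 12 fits without 1 mouse (0.0532 to 0.158, all but added miR-126 replicate 3 of passage 4). Without that replicate Ccr2 (-1.39, adjusted p = 0.0328), Lyz1 (-2.56, adjusted p = 0.028) and Ly6c1 (-1.44, adjusted p = 0.0191) passed as well, and Lyz1 also did without added miR-126 replicate 1 of passage 1 (-3.02, adjusted p = 0.0356). For the knockout 0 of 6 passed in limma (1 at an unadjusted p under 0.05, background 0.428%), with Ccr2 at -1.77 ± 0.52 (adjusted p = 0.164) and Cx3cr1 at 0.59 ± 0.45 (adjusted p = 0.849).

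The genes whose group means ran most like each member were found by Pearson's r over the 13 group means, passing over predicted genes, small RNAs, chemosensory receptors and ribosomal pseudogenes; the means share arrays of unequal spread, so these are descriptions. Csf1r was followed most closely by Pid1 (0.974), Rpp30, Rras, Nipa2 and Hip1 (0.959), and Lyz2 by Cd52, Smap2, Naaa (0.988), Atg3 and Selenot (0.986). Ccr2 was followed by Cd180 (0.953), Dhrs7b, Dhx58, Olfm1 and Cant1 (0.940), and Cx3cr1 by Prr5l (0.922), Tac2, Cfap126, Calhm2 and Tgfbr3 (0.893). Lyz1 was followed by Rnf215 (0.952), Gab1, Stk11ip, Gas2l3 and Rap2b (0.919), and Ly6c1 by Pnpla1 (0.933), Lpar2, Zc3h10, Penk and Casz1 (0.901). Among the members themselves Ccr2 and Csf1r ran most alike (0.836), while Cx3cr1 and Lyz1 had an r of 0.0269 and Cx3cr1 and Ly6c1 one of -0.464. The neighbouring lysozymes had an r of 0.753 over group means, 0.525 over arrays of ordinary spread and 0.356 over deviations within groups.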

How the data were processed

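The deposited values are log2 expression values that the authors made with RMA in Partek 6.0, per the submitters' processing notes, for 27037 probe sets on 39 arrays. Of these, 23521 carried 1 gene symbol, 1814 several and 1702 none, and the probe set with the highest mean stood for each of 22180 genes. One linear model with 13 group means (26 residual degrees of freedom) was fitted to all genes in limma 3.58.1 under R 4.3.3, with empirical Bayes moderation and Benjamini-Hochberg adjustment over all genes; a call needed an adjusted p under 0.05. The median standard error was 0.222 for 3 against 3 arrays, and the number of arrays limits the precision. The code was tested on simulated data. The members and lists were chosen with earlier results of these data known. Of 146 listed symbols 132 were measured. The text names the members, Ly6c2, up to 4 genes per list and miR-126 arm with the lowest adjusted p against AE9a, and the 5 genes most like each member. Replicate numbers did not pair the arrays, so no block was used.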

Additional observations from a re-analysis of the deposited data

Results flagged for a closer look

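The effect of added miR-126 against AE9a differed between passages 1 and 4 for 2 members by a test of the difference itself (limma interaction term, Benjamini-Hochberg adjustment). For Lyz2 it changed by -2.24 on the log2 scale (adjusted p = 0.00151), and all 3 added miR-126 mice of passage 4 lay below every AE9a mouse. For Csf1r it changed by -1.91 (adjusted p = 0.0482), a call lost in 11 of 12 fits without 1 mouse (adjusted p 0.0532 to 0.158, all but added miR-126 replicate 3 of passage 4), after cyclic loess (-1.29, 0.126), after quantile normalization (-1.35, 0.139), with the replicate block (0.0564), with only the groups compared (0.0641), in the fit without the arrays of low spread (-0.96, 0.553) and in the fit on array spread (-0.92, 0.524); 2 of 3 added miR-126 mice of passage 4 lay below every AE9a mouse of that passage. The arrays of low spread in this arm were from passages 2 to 4, and the values without them stand with the results above.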

How the results depend on the processing

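Of 278 counts of members called under other settings 210 kept their value or moved little, and small moves under those settings are not listed below. Some of those settings tested every probe set with a single symbol or averaged a gene's probe sets. Each of the 6 members had 1 probe set, so its values could not change there and agreement was nearly fixed in advance. Such fits are included in the 278 counts and in the member values that follow. Of 1668 member values 1510 had the same status as in the main fit, 96 lost a call and 62 gained one. Many of the 1510 were called in neither fit and had no call to lose, so the 96 are not to be read as a share of 1668. While 0 called values turned sign, 48 of the 1510 turned sign with neither fit calling them. The alternatives for the gene lists were chosen after seeing the data. Without arrays of low spread the members called were 1 for the knockout at passage 1, AE9a at passage 4 and the knockout at passage 4 and 2 for added miR-126 at passage 4 (each against normal), 1 for the added mean, 3 for added against knockout, 2 and 1 for added miR-126 at passages 2 and 4, 2 and 0 for the knockout at passages 1 and 2, 1 for passage 4 against 1 in the added and knockout arms, and 1 for the change of the added effect. With the spread as a covariate they were 1, 1, 1 and 2 for the same comparisons with normal, 2 for the added mean, 2, 1 and 1 at passages 2 to 4, and 1 for both added-arm changes. In that order the shares of all genes called were 19.1%, 9.14%, 10.2% and 15.8%, then 12.7%, then 2.41%, 7.86% and 10.5%, then 15.3% and 3.39%. With array weights they were 3, 2, 2 and 1 against normal (added and knockout at passage 1, AE9a and knockout at passage 4), 5 for the knockout mean, 1 and 5 for added miR-126 at passages 1 and 4, 3, 2 and 2 for the knockout at passages 1 to 3, 1, 5 and 2 for passage 4 against 1 in AE9a, added and knockout, and 5 and 1 for the changed effects. With only the compared groups fitted they were 2, 2, 2 and 1 against normal (added and knockout at passage 1, added and knockout at passage 4), 3 for added at passage 3, 3, 0 and 0 for the knockout at passages 1, 2 and 4, and 1 for passage 4 against 1 in both arms. Cyclic loess gave 1 for added and for knockout at passage 4 against normal and 1 for the change of the added effect; quantile normalization gave 1 (AE9a at passage 1), 2 (added) and 1 (knockout at passage 4) against normal, 1 for the knockout at passage 4 and 1 for that change. A trended, robust prior gave 1 for AE9a at passage 1 against normal, a filter on dim genes 1 for AE9a at passage 4, and a 2-fold minimum 2 for added at passage 4 against normal, 2 for the added and 1 for the knockout mean. Leaving out passage 3 gave 3 for the added mean, and passage as the unit 0 in all 3 means. Same-numbered arrays had a mean r of -0.0207 and 11 of 39 correlated best with their own number; the replicate block gave 1 for AE9a at passage 1 against normal, 1 for the knockout at passage 4 and 1 for the change of the added effect. Without 1 mouse the counts ran from 1 to 2 (AE9a at passage 1), 0 to 1 (AE9a) and 1 to 4 (added, passage 4) against normal, 3 to 4 for the knockout mean, 2 to 4, 3 to 5 and 1 to 4 for added at passages 2 to 4, 0 to 1, 1 to 2 and 0 to 2 for the knockout at passages 2 to 4, 1 to 3 for added passage 4 against 1, and 1 to 5 for the change of its effect. The share of all genes called moved with the setting as well, so a changed count is no result about the members alone. For the knockout mean it was 26.8% with array weights and 1.78% with the 2-fold minimum, against 8.17% in the main fit. For the added mean it was 5.87% with the 2-fold minimum and 19% without passage 3, against 55.1%. The cause of these differences was not tested.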

Other observations

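Other genes of the sorted cells moved beside the members, by limma over the 4 passages against AE9a. With added miR-126 the class II genes H2-Aa (-3.89 ± 0.31) and H2-Ab1 (-3.97 ± 0.34), which present antigen, fell and the progenitor receptor Flt3 (1.48 ± 0.31) rose; of 9 dendritic cell markers 1 rose and 3 fell, or 0 and 2 without the arrays of low spread, so Flt3 was not called there. Of 6 Ly6 family genes 1 rose (Ly6k, 0.22) and 2 fell, with the neutrophil antigen Ly6g at -2.44 ± 0.47; without the arrays of low spread 0 passed. In the knockout Ly6g alone of the 6 fell (-1.98 ± 0.47). Of 10 NK and T cell markers 1 rose and 6 fell with added miR-126, Cd3g at -1.94; without those arrays 1 rose and 3 fell. With added miR-126 30.7% of all genes rose and 24.3% fell, and in the knockout 2.88% rose and 5.29% fell. These shares are from the fit with all arrays. The fit without the arrays of low spread called a much smaller share with added miR-126.

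Of 7 B cell markers 1 fell in each arm, Cd79a at -1.57 ± 0.25 in the added miR-126 arm and at -0.89 ± 0.25 in knockout mice, while against normal marrow at passage 4 6 of 7 were lower in AE9a, in added miR-126 and in the knockout, where 2.09%, 14.5% and 3.63% of all genes were lower. Against AE9a over the passages, the median of the 7 with added miR-126 was -0.26, and -0.45 without the arrays of low spread. No value without those arrays was made for this list against normal marrow. The erythroid genes Klf1 (1.03 ± 0.17) and Rhag (2.1 ± 0.35) rose in the knockout. With added miR-126 Rhag (-1.26 ± 0.35) and Car1 (-1.86 ± 0.35) fell, 2 of 5 erythroid markers, or 1 without those arrays. Of 8 endothelial and stromal markers 1 fell in the knockout (Col1a1, -0.53) and 2 rose with added miR-126 (Cxcl12, 0.34, and Col3a1, 0.29); without those arrays neither was called.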
